A study of Mus musculus with 10 samples.

Results

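The peaks described here are those that p65 CUT&Tag placed at the Tnf, Lta and Ltb locus of RAW264.7 cells. A peak was taken when it overlapped the body of one of these 3 genes extended by 10 kb on each side, and because the genes lie next to each other this gave a single window of 31072 bp, chr17:35184507-35215578 (GRCm38, 1-based). The window held 113 of the 536143 peaks in 9 lists, and the peaks merged into 12 of 235070 regions. RAW264.7 is a mouse macrophage-like line grown from a tumour of a male animal that the Abelson leukaemia virus had induced, and its genotype is given as WT. After 24 h in culture the cells received DMSO (the solvent), DMSO+LPS (lipopolysaccharide, the endotoxin of bacteria, which activates macrophages) or LPS+Skatole (skatole is a methylated indole that gut bacteria make from tryptophan) for 12 h, and 3 libraries of 200000 cells were made from each group. The groups are called DMSO, LPS and LPS+Skatole below. All groups share this single line, and nothing in the labels says that the libraries of a group came from separate cultures, so the p-values measure the spread between these libraries, which may be technical. In CUT&Tag an antibody guides a transposase to a protein on chromatin, and the released fragments pile up as peaks. The labels name a p65 antibody and the methods of the study an antibody against phosphorylated p65. A Blank sample without primary antibody was not analysed here, so no further correction for signal obtained without antibody was made. Whether the deposited values were already set against such a control is not given in the sources used here.

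TNF, lymphotoxin α (Lta) and lymphotoxin β (Ltb) are cytokines of one family. TNF is the cytokine that activated macrophages release early and that drives inflammation in joints. Lymphotoxin α is secreted and binds the TNF receptors, or joins membrane-bound lymphotoxin β in a complex that signals through the lymphotoxin β receptor. p65 is the subunit of NFκB that carries its activation domain, and Tnf is a textbook target of NFκB in macrophages.

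In the gene table Ltb spans chr17:35194507-35196305 on the plus strand, Tnf chr17:35199367-35202007 and Lta chr17:35203165-35205578, both on the minus strand. The promoter table places the Lta start at chr17:35205351, 227 bp inside this gene span, and all distances from the Lta start are counted from there. The window also holds Lst1, a gene of leukocytes, at chr17:35185095-35188440, the end of the pseudogene Ncr3-ps at chr17:35180536-35184809, and the microRNA genes Mir6973a and Mir6974. The 250 bases before the Tnf start (chr17:35202008-35202257, minus strand) and before the Ltb start (chr17:35194257-35194506, plus strand) are shown because called peaks lay over the starts of these 2 genes. They are RefSeq sequence of GRCm38.p6, read 5′ to 3′ toward the gene, and capitals mark the letters found of 4 motifs.
Tnf: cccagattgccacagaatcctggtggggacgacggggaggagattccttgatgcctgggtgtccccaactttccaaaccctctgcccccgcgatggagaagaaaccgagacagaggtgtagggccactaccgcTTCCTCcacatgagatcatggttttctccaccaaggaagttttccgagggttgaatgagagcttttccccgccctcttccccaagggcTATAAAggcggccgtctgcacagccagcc
Ltb: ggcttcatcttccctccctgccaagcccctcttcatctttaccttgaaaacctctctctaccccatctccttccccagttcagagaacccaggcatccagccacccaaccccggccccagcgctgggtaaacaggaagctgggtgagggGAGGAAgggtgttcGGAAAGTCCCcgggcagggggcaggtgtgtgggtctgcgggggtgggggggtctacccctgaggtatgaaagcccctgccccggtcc
The motifs, searched on both strands, were the κB motif by its name alone, the AP-1 motif TGANTCA, the core GAGGAA of the macrophage factor PU.1 and the TATA box TATAAA. Tnf held the TATA box, 29 to 24 bases before its start, and the PU.1 core on the opposite strand, 117 to 112 bases before it. Ltb held a κB match on the opposite strand, 87 to 78 bases before its start, and a PU.1 core at 101 to 96 bases. The same stretch before the Lta start, which lies mostly inside the gene span given above, held a TATA box at 167 to 162 bases. No 2 of these matches overlapped. Of 32851 promoters of this length, 7.25% held the κB motif, 6.75% the AP-1 motif, 23.3% the PU.1 core and 12.4% the TATA box. No κB match stood in the Tnf or Lta stretch, which says only that these letters are not in that stretch.

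The lists differed in length and depth. They held 37551 to 43450 peaks in DMSO, 55637 to 63498 in LPS and 78136 to 80153 in LPS+Skatole, and the genome background, the lowest local background that most peaks of a list share, was 1.09 to 1.40, 2.23 to 2.34 and 2.26 to 2.39 fragments per position. All 5 macrophage genes checked (Spi1, Csf1r, Adgre1, Cd68, Lyz2) had a peak within 10 kb in 9 of 9 libraries, against 8 for the T cell gene Cd3e, 5 for the epithelial gene Epcam and 2 for the liver gene Alb. These lists measure binding, so this check bears on the cell type only indirectly.

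p65 peaks were called across the locus in every condition, without LPS as well as with it. Of the 12 regions, 6 had a peak in 9 of 9 libraries, as did 5.88% of the 235070 regions of the genome. In the order of the chromosome they lay over Lst1 (chr17:35185774-35188965), over Ltb with the sequence before it (chr17:35192479-35196178), inside Tnf (chr17:35200240-35201353), over the Tnf start (chr17:35201869-35202970), upstream of Lta (chr17:35207607-35212042) and farther out on that side (chr17:35214278-35216306). The Lta body itself was touched by 0 peaks in all 9 libraries.

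**Figure D1:**
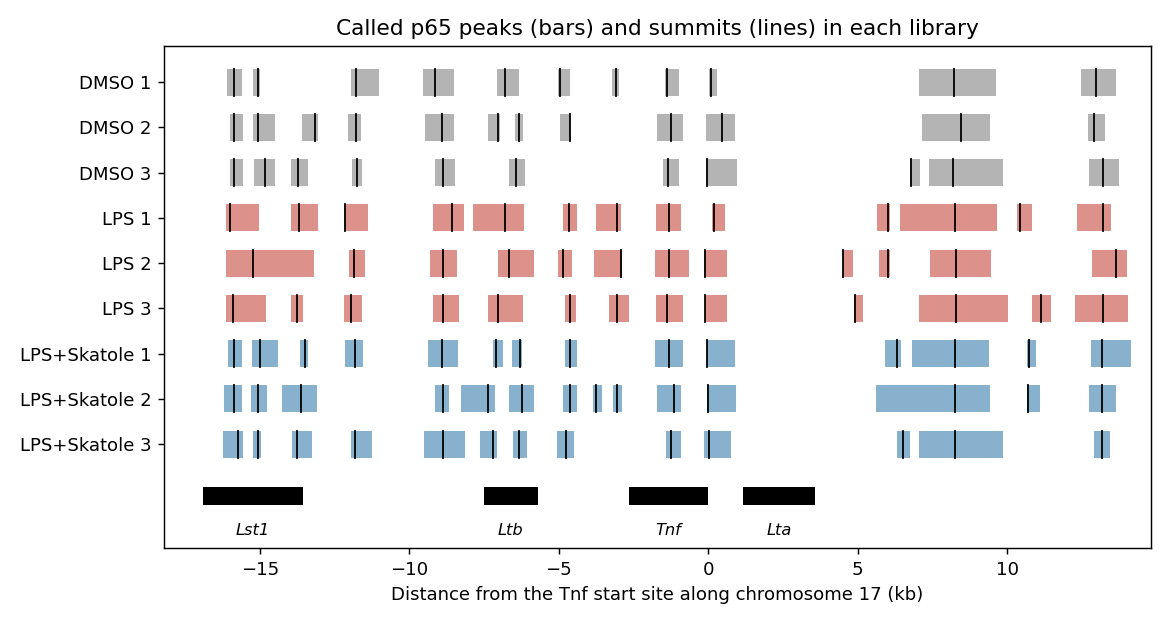
Called p65 peaks (bars) and their summits (black lines) of the 9 libraries against the distance in kb from the Tnf start along chromosome 17, with gene bodies in black at the bottom. Each of the 9 rows shows a peak inside Tnf, a peak at its start and a wide peak about 8 kb to the right, and no bar lies over Lta.

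The other 6 regions were called in some libraries. The region between Lst1 and Ltb (chr17:35189828-35190999) was called in 8 libraries and not in LPS+Skatole 2. The region between Ltb and Tnf (chr17:35196937-35197611) was called in 8 and not in DMSO 3. The region just past the 3′ end of Tnf (chr17:35198169-35199341) was called in 3 of 3 LPS libraries, in 1 of 3 DMSO libraries and in 1 of 3 LPS+Skatole libraries, with summit counts of 88, 102 and 111 fragments in LPS, 35 in DMSO 1, and 97 and 93 for the 2 peaks of LPS+Skatole 2. A region beyond the one upstream of Lta (chr17:35212350-35213482) was called in 0 of 3 DMSO, 2 of 3 LPS and 2 of 3 LPS+Skatole libraries, with 16 to 27 fragments at its summits. The last 2 regions were called in 1 LPS library each, with 24 and 17 fragments.

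No region of the locus appeared or disappeared between groups by the rule of 3 libraries against 0. Of the merged regions called in either group, 1.65% were gained and 0.0685% lost in LPS against DMSO, and 0.583% gained and 0.129% lost in LPS+Skatole against LPS. At the locus the counts were 0 of 12 for each of these 4. A peak just under the authors' threshold counts as absent, and presence was not tested.

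LPS libraries had more of the window under peaks than DMSO libraries. Covered length was 8536, 8733 and 8453 bp in DMSO, 13463, 12338 and 12244 bp in LPS, and 10303, 12620 and 10481 bp in LPS+Skatole. The means were 8574 ± 144 bp, 12682 ± 678 bp and 11135 ± 1289 bp (SD, n = 3), or 27.6%, 40.8% and 35.8% of the window. LPS and DMSO did not overlap (exact two-sided permutation test, p = 0.1, the smallest that 3 libraries against 3 allow), and LPS+Skatole overlapped LPS (exact permutation test, p = 0.3). An exact joint test over all 280 divisions into 3 groups, one-sided by construction with a smallest p of 0.00357, gave p = 0.0107. The LPS-to-DMSO ratio of covered length was 1.48 in the window and 1.48 over the whole lists. For LPS+Skatole against LPS the ratio was 0.878 in the window and 1.29 over the whole lists.

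The median width of a peak in the window, a measure chosen after its values were seen, was 516, 564 and 590 bp in DMSO, 869, 921 and 730 bp in LPS, and 558, 707 and 578 bp in LPS+Skatole. The LPS values lay above all others, which is given as a description with no test because the measure was picked on these values. Over the whole lists the median width was 541 ± 1.15, 535 ± 11.6 and 514 ± 6.56 bp (SD, n = 3). How often widths separate in this way in other gene windows was not computed, so the pattern cannot be called particular to this locus.

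The number of peaks in the window was 11, 12 and 11 in DMSO, 13, 12 and 13 in LPS, and 14, 14 and 13 in LPS+Skatole. LPS overlapped DMSO and LPS+Skatole overlapped LPS (exact permutation test, p = 0.2 and p = 0.3), while LPS+Skatole lay above DMSO without overlap (exact permutation test, p = 0.1). The exact joint test gave p = 0.0214, and 0.0536 to 0.0571 when DMSO 1, DMSO 3, LPS+Skatole 1 or LPS+Skatole 2 was left out. The ratio of the means was 1.12 for LPS to DMSO and 1.08 for LPS+Skatole to LPS, against 1.45 and 1.34 for the length of the whole lists. With each list cut to the 37551 strongest peaks, the mean difference of LPS minus DMSO turned from 1.33 to -1.33 peaks (exact joint test, p = 0.164), and with the counts scaled down to the lowest genome background it was -0.33 (exact joint test, p = 0.157). Other settings separated other pairs. Among peaks with a −log10 p of at least 10, LPS minus DMSO was 0 peaks, and LPS+Skatole minus LPS was 3.33 peaks without overlap (14, 13 and 13 against 11, 9 and 10; exact permutation test, p = 0.1). With 20 kb on each side both differences were 2.67 peaks without overlap, and with 3 kb they were 2.33 peaks without overlap and 0 (exact permutation test, p = 0.1 for each difference without overlap).

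**Figure D2:**
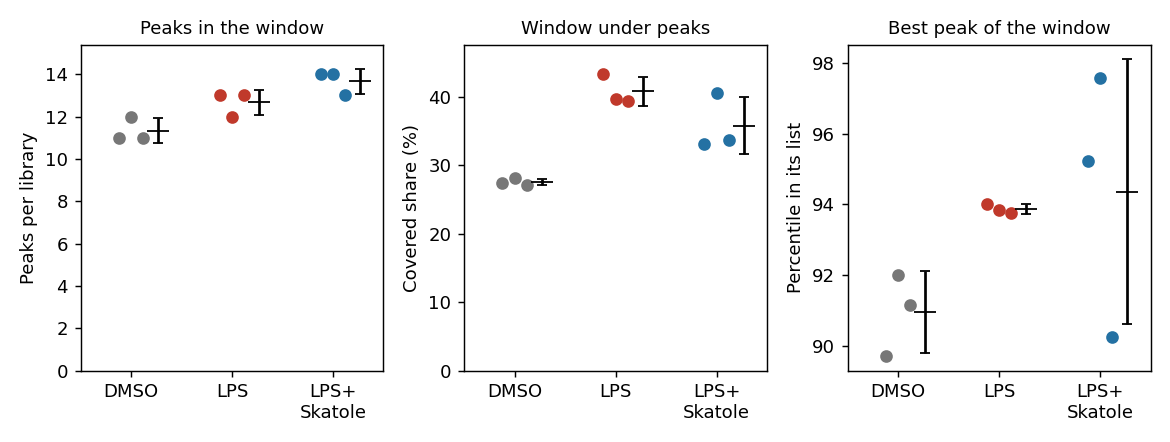
Peaks per library, share of the window under peaks (%) and within-list percentile of the best peak for the 9 libraries, with group mean and SD (n = 3) as black bars. The covered share is 27.2 to 28.1% in DMSO and 39.4 to 43.3% in LPS, while the LPS+Skatole libraries spread from 33.2 to 40.6%.

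By gene, the windows overlap and share peaks. Within 10 kb of Tnf there were 8, 8 and 7 peaks in DMSO, 9, 10 and 9 in LPS, and 9, 9 and 9 in LPS+Skatole. Within 10 kb of Lta there were 8, 8 and 7, then 10, 10 and 10, then 10, 11 and 9. For both genes LPS lay above DMSO without overlap, which 13.1% of 18192 protein-coding genes with a peak in these groups also showed, and LPS+Skatole lay above DMSO without overlap, as did 26% of genes. Within 10 kb of Ltb there were 9, 10 and 8 peaks in DMSO, 9, 8 and 9 in LPS, and 10, 11 and 10 in LPS+Skatole. Here LPS+Skatole lay above LPS without overlap (exact permutation test, p = 0.1), as it did for 9.27% of genes. Inside the Ltb body itself the libraries had 1, 2 and 1 peaks, then 1, 1 and 1, then 2, 2 and 2.

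Against 21887 protein-coding genes, the mean number of peaks over the 9 libraries within 10 kb was higher at Tnf (8.67) than at 94.7% of genes, at Lta (9.22) than at 95.5% and at Ltb (9.33) than at 95.6%, where the median gene had 2.11. Among the 3108 genes no longer than the longest of the 3, the median was 0.111 and the share was 99.87% for Tnf, 99.94% for Lta and 99.97% for Ltb. These are descriptions of one cluster of genes that share most of their peaks.

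The 3 starts differed in how they were covered. A window of 300 bp, from 250 before to 50 after the start, was under a peak in 9 of 9 libraries at Tnf, in 3 of 9 at Ltb (LPS 1, LPS+Skatole 2 and LPS+Skatole 3) and in 0 of 9 at Lta. A summit stood inside it in 6 libraries at Tnf and in 0 at Ltb and Lta, and the summit nearest to the Lta start was 1170 to 3375 bp away. Of 32851 such windows in the genome, 60.0% were under a peak in 0 libraries, 19.2% in 1 to 8 and 20.9% in 9.

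Within a list, the rank of a peak is given as a percentile, the share of that library's peaks with a weaker p. The best peak of the window stood at 89.7, 92.0 and 91.1 in DMSO, 94.0, 93.8 and 93.7 in LPS, and 95.2, 97.6 and 90.3 in LPS+Skatole. LPS lay above DMSO without overlap (exact permutation test, p = 0.1), a pattern that the best peak near 20% of 11870 genes had, and the exact joint test gave p = 0.207. LPS overlapped DMSO in lists of equal length, after scaling to the lowest background and with a window of 3 kb, where the difference of 2.90 points became 0.060, 1.19 and 3.99 points (exact permutation test, p = 0.9, p = 0.2 and p = 0.3). Ranked by fold instead of p, the difference turned to -4.56 points, again with overlap (exact permutation test, p = 0.4). Counted from the top of each list, the best peak had a mean position of 3655 ± 196 in DMSO libraries, of 3632 ± 323 under LPS and of 4483 ± 3026 under LPS+Skatole (SD, n = 3), and the groups overlapped (exact joint test, p = 0.857). LPS+Skatole 3 alone held the lower end, at position 7809. The range of the group means was 3.4 percentile points with all libraries and 5.45 points without LPS+Skatole 3. Without that library, LPS+Skatole (95.2 and 97.6) lay above LPS, and LPS above DMSO, without overlap. That library was singled out by its own low value, and the share of genes with such an order was not computed. In lists of equal length LPS+Skatole 1 (90.0) lay among the LPS libraries (89.4 to 91.1), so the order was not kept there. Without any one of the other 8 the range was 2.78 to 3.93 points (exact joint test, p = 0.229 to 0.486 for these 8).

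Near Ltb the best peak ranked lower in LPS+Skatole than in LPS. Its percentile was 89.7, 91.0 and 86.9 in DMSO, 93.2, 93.8 and 92.5 in LPS, and 89.7, 91.3 and 89.6 in LPS+Skatole. LPS stood above both other groups without overlap (exact permutation test, p = 0.1 for each; exact joint test, p = 0.0214). The difference of LPS+Skatole minus LPS was -2.99 percentile points, and a decrease without overlap was found near 3.18% of 11870 genes. From the top of the list, this peak stood at positions 3863, 3891 and 5381 in DMSO, 3792, 3589 and 4753 in LPS, and 8139, 6807 and 8325 in LPS+Skatole. By position LPS overlapped DMSO (exact permutation test, p = 0.5). The difference was -9.89 points in lists of equal length and -4.76 points after scaling to the lowest background, again without overlap (exact permutation test, p = 0.1). LPS minus DMSO was 3.97 points in the full lists, and with these settings it was 0.89 and 2.1 points with overlap (exact permutation test, p = 0.5 and p = 0.3). The best peak within 10 kb lay in the region over Ltb in DMSO 3 and LPS+Skatole 3, inside Tnf in LPS 1, LPS 2 and LPS+Skatole 2, over the Tnf start in DMSO 2, over Lst1 in DMSO 1 and LPS 3, and between Lst1 and Ltb in LPS+Skatole 1. This rank is therefore mostly not one of a peak over Ltb itself. Near Tnf and Lta, LPS+Skatole overlapped LPS (exact permutation test, p = 0.7).

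Inside Tnf, LPS libraries had more fragments at the summit than DMSO libraries, and the groups overlapped once counts were divided by depth. The summit lay 1137 to 1388 bp inside the gene from its start in all 9 libraries. Counts were 54, 85 and 83 fragments in DMSO, 145, 145 and 134 in LPS, and 129, 140 and 121 in LPS+Skatole. Raw counts follow depth, so each was divided by the genome background of its library, and the log2 of that ratio is called the summit height. In bulk libraries a higher summit in each cell and a summit in more cells cannot be told apart. The ratios were 49.6, 60.8 and 61.1 in DMSO, 63.2, 65.1 and 57.2 in LPS, and 55.1, 61.9 and 50.5 in LPS+Skatole, and the 3 groups overlapped. The height difference was 0.12 for LPS minus DMSO and -0.15 for LPS+Skatole minus LPS (exact permutation test, p = 0.4 and p = 0.2).

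Heights moved over the whole lists, and this bears on every region of the locus. In the median of 13824 regions called in all 9 libraries, height was 0.24 lower in LPS than in DMSO and 0.24 higher in LPS+Skatole than in LPS. Relative to the median region of each library, the peak inside Tnf stood 0.33 higher in LPS than in DMSO and 0.44 lower in LPS+Skatole than in LPS (exact permutation test, p = 0.1 for each; exact joint test, p = 0.0286). After Benjamini-Hochberg adjustment over all 13824 regions this joint p was 0.262. On this scale 2150 of these regions had an unadjusted joint p under 0.05 (exact joint test), and 0 passed after adjustment. The share of regions whose groups do not overlap on this scale was not computed. Without the median as reference the groups overlapped, as given above, so the call depends on the denominator.

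The rank of the peak inside Tnf by p was 43.5, 78.5 and 68.8 in DMSO, 93.2, 93.8 and 79.2 in LPS, and 88.6, 91.3 and 78.6 in LPS+Skatole. LPS lay 25.2 percentile points above DMSO without overlap (exact permutation test, p = 0.1; exact joint test, p = 0.0464), as 20.3% of the 13824 regions also did. Without DMSO 1, the lowest library, the difference was 15.1 points, and the joint p was 0.0821 to 0.182 when DMSO 1, LPS 1, LPS 2 or any LPS+Skatole library was left out (exact joint test). A percentile depends on the length of its list, and the LPS lists were longer. Counted from the top of its list, the peak stood at a mean position of 14457 ± 6116 for DMSO libraries, of 6853 ± 5478 under LPS and of 10954 ± 5445 under LPS+Skatole (SD, n = 3), and LPS overlapped DMSO (exact permutation test, p = 0.3; exact joint test, p = 0.318). LPS also overlapped DMSO in lists of equal length, with a difference of 20.3 points, and after scaling to the lowest background, with 21.8 points (exact permutation test, p = 0.3 and p = 0.2; exact joint test, p = 0.318 and p = 0.182). LPS+Skatole overlapped LPS in the full lists (exact permutation test, p = 0.5). Ranked by summit count instead, the peak stood at 89.1 to 94.0, 96.5 to 97.7 and 95.0 to 96.8. The local background that the authors' caller set there moved with the rank. It was 17.4, 13.1 and 17.3 times the genome background in DMSO, 8.53, 8.47 and 16.8 times in LPS, and 8.56, 8.34 and 13.1 times in LPS+Skatole, and its part in the rank was not tested.

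Over the Tnf start, summit height was lower with LPS than without. Counts were 77, 121 and 88 fragments in DMSO, 116, 134 and 130 in LPS, and 136, 130 and 153 in LPS+Skatole. Divided by the genome background they were 70.7, 86.5 and 64.8 in DMSO, 50.6, 60.2 and 55.5 in LPS, and 58.1, 57.5 and 63.9 in LPS+Skatole, so all 3 DMSO values stood above all others. The height difference was -0.41 for LPS minus DMSO and -0.30 for LPS+Skatole minus DMSO, without overlap (exact permutation test, p = 0.1 for each), and 0.11 for LPS+Skatole minus LPS with overlap (exact permutation test, p = 0.3). A height in LPS below DMSO without overlap was found for 23% of the 13824 regions, and one above for 4.22%. A height in LPS+Skatole below DMSO without overlap was found for 11.4%. The exact joint test gave p = 0.0179, which after Benjamini-Hochberg adjustment over all 13824 regions was 0.187. Unadjusted, 2760 of these regions had a joint p under 0.05, and 0 passed after adjustment. The joint p was 0.0536 to 0.0643 when DMSO 2, LPS 1, LPS 3 or any LPS+Skatole library was left out. Relative to the median region the difference of LPS minus DMSO was -0.19, and LPS+Skatole minus LPS turned from 0.11 to -0.18 (exact permutation test, p = 0.2 for each). On this scale LPS+Skatole still lay below DMSO without overlap, and the share of regions that did so was not computed. The exact joint test gave p = 0.0464, which after Benjamini-Hochberg adjustment over all 13824 regions was 0.299.

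The peak over the Tnf start had a high count and a low rank. By count it stood at the percentiles 94.3 to 97.4 of its lists in all 9 libraries. By p it stood at 37.7, 91.0 and 33.9 in DMSO, 41.1, 26.7 and 13.8 in LPS, and 35.1, 0.383 and 55.7 in LPS+Skatole. Its local background was 12.9 to 38.5 times the genome background, a mean of 30.0 times that exceeded 98.7% of the 13824 regions. DMSO 2, where the background was 12.9 times, is also the library with the percentile of 91.0, and its summit lay 472 bp upstream of the start, against 111 bp inside the gene to 200 bp upstream in the other 8 libraries. How the caller formed the local background is not given in the sources used here.

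**Figure D3:**
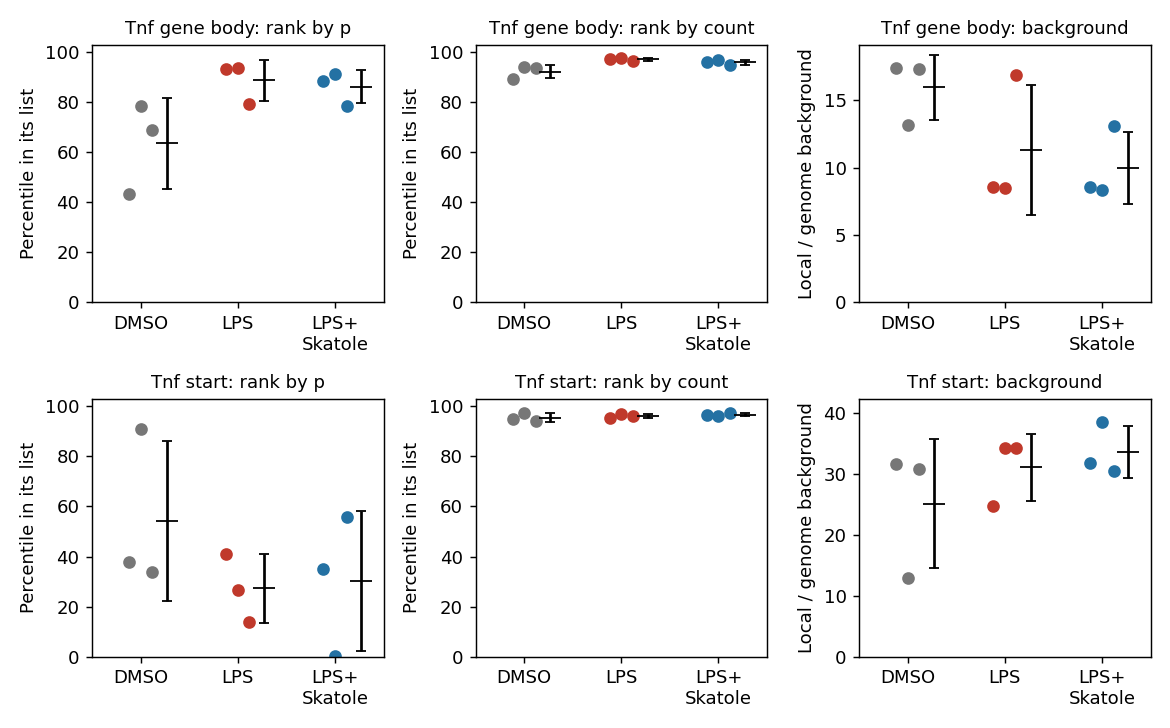
For the peak inside Tnf (top) and over its start (bottom), the percentile by p, the percentile by summit count and the local background divided by the genome background in the 9 libraries, with group mean and SD (n = 3) as black bars. The start peak stays above the percentile 94 by count in every library and ranges from 0.383 to 91.0 by p.

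Upstream of Lta stood the best-ranked peak of the window in 7 of 9 libraries. Its summit lay between chr17:35210212 and chr17:35210482 in all 9 libraries, a span of 270 bp, at a median of 4.91 kb from the Lta start and 8.26 kb from the Tnf start. Counts were 61, 76 and 96 fragments in DMSO, 138, 116 and 142 in LPS, and 165, 200 and 128 in LPS+Skatole. Over the genome background they were 56.0, 54.3 and 70.6, then 60.1, 52.1 and 60.6, then 70.5, 88.5 and 53.4. All 3 groups overlapped. The height difference was -0.06 for LPS minus DMSO and 0.27 for LPS+Skatole minus LPS (exact permutation test, p = 0.8 and p = 0.3; exact joint test, p = 0.479). Relative to the median region both turned sign, to 0.16 and -0.024 (exact permutation test, p = 0.3 and p = 0.9). LPS+Skatole minus LPS was 0.095 without LPS+Skatole 2 and 0.46 without LPS+Skatole 3, and LPS minus DMSO lay between -0.13 and 0.059 when each library in turn was left out. LPS+Skatole 2 was the highest of the 9 and LPS+Skatole 3 the second lowest. By p the peak stood at the percentiles 83.2 to 92.0 in DMSO, 91.1 to 94.0 in LPS and 90.3 to 97.6 in LPS+Skatole.

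Over Ltb, height was lower in LPS than in DMSO. The counts over the genome background were 41.3, 35.0 and 42.7 in DMSO, 21.4, 31.0 and 26.5 in LPS, and 32.1, 24.3 and 37.2 in LPS+Skatole. LPS minus DMSO was -0.61 without overlap (exact permutation test, p = 0.1), LPS+Skatole minus LPS was 0.24 with overlap (exact permutation test, p = 0.4), and the exact joint test gave p = 0.075. Relative to the median region the difference of LPS minus DMSO was -0.39, and LPS+Skatole minus LPS turned to -0.053 (exact permutation test, p = 0.2 and p = 0.9). The region over Ltb is wide and held 22 peaks, with one group of summits at -1.37 kb from the Ltb start (outside the gene) in 8 libraries, a summit at -1.07 kb in LPS 1, and another group inside the gene in all 9. The best summit lay inside the gene in LPS 3 and LPS+Skatole 2 and before it in the other 7, so heights of different summits are compared here.

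In both flanking regions LPS overlapped DMSO and LPS+Skatole overlapped LPS in height. Over Lst1, LPS minus DMSO was -0.33 and LPS+Skatole minus LPS was -0.02 (exact permutation test, p = 0.3 and p = 1). LPS+Skatole lay below DMSO there without overlap, by a difference of -0.35 (exact permutation test, p = 0.1; exact joint test, p = 0.282), as did 11.4% of the 13824 regions. The best summit over Lst1 lay between chr17:35186127 and chr17:35186151 in DMSO. In LPS+Skatole it lay at chr17:35187004, chr17:35188384 and chr17:35186264, so heights of different summits are compared here too. In the outermost region beyond Lta the differences were -0.38 and -0.04 (exact permutation test, p = 0.3 and p = 0.8). Over the 6 regions called in all libraries, LPS lay below DMSO in height without overlap in 2, where 23% of the 13824 regions did, and LPS+Skatole lay above LPS in 0, where 22.3% did. For the percentile, LPS lay above DMSO in 1 of the 6, where 20.3% did, and LPS+Skatole above LPS in 0, where 14.2% did.

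**Figure D4:**
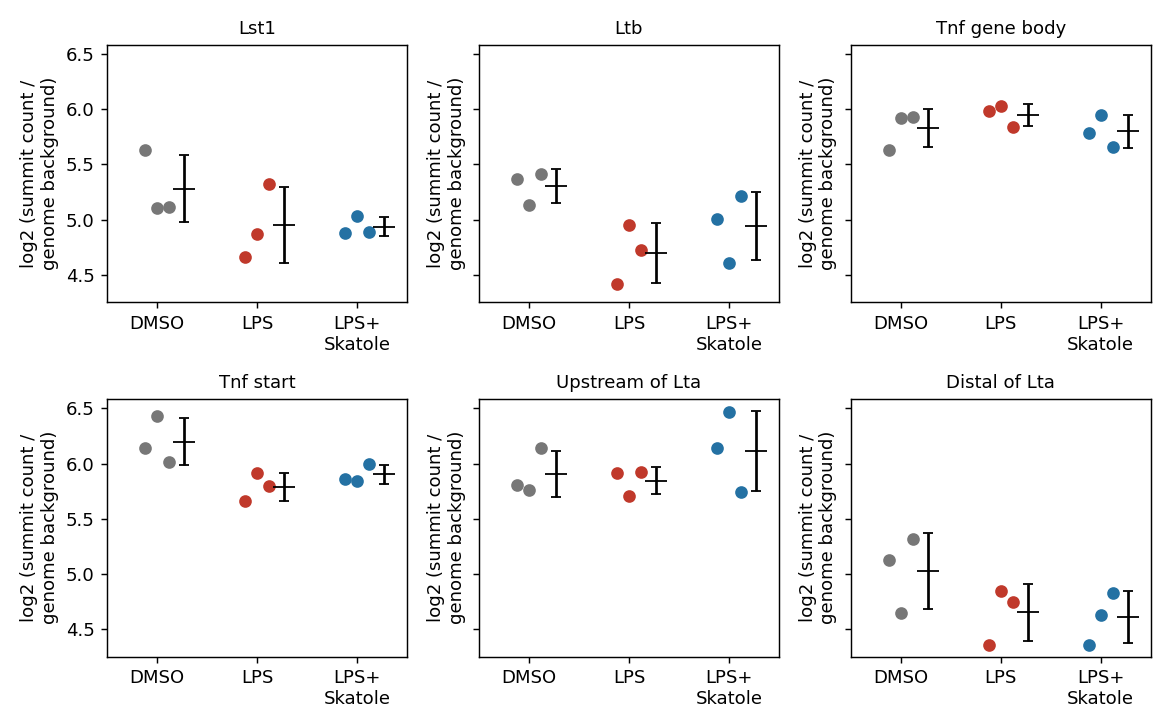
Summit height, the log2 of the summit count over the genome background, in the 6 regions called in all 9 libraries, with group mean and SD (n = 3) as black bars. DMSO lies above LPS without overlap over Ltb and the Tnf start, and the groups overlap in the Tnf gene body and upstream of Lta.

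Summit positions were close to each other in the peaks inside Tnf and upstream of Lta, and spread over several summits in the wide regions. The mean position inside Tnf differed between groups by at most 104 bp (exact joint test, p = 0.25). In the outermost region LPS summits stood 333 bp farther from Lta than DMSO summits and LPS+Skatole minus LPS was -198 bp, both without overlap (exact permutation test, p = 0.1 for each; exact joint test, p = 0.0143). The share of all regions whose summits separate in this way was not computed, so how common such a shift is remains unknown. The summit of LPS 2 lay farthest out, at chr17:35215657, past the end of the window at chr17:35215578. Without LPS 2 the range of the group means was 192 bp (exact joint test, p = 0.146). The joint p was 0.1 to 0.139 when DMSO 1, DMSO 2 or any LPS+Skatole library was left out.

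Genes that carry the signals of TNF and lymphotoxin were read in the same way, by the number of peaks within 10 kb. The 13 genes were the receptors Tnfrsf1a, Tnfrsf1b, Ltbr and Tnfrsf14, the protease Adam17 that sheds TNF from the cell surface, the adaptors and kinases Tradd, Ripk1, Traf2, Traf3 and Map3k14, the ubiquitin ligases Birc2 and Birc3, and Zfp36, which destabilises Tnf mRNA. In LPS against DMSO, 1 of 13 was higher without overlap and 0 lower. It was Birc3, with 3, 4 and 4 peaks in DMSO and 6, 6 and 5 in LPS. In LPS+Skatole against LPS, 2 were higher and 0 lower. Tnfrsf1b had 5, 5 and 5 peaks in LPS and 7, 8 and 8 in LPS+Skatole, and Adam17 had 8, 10 and 8 against 11, 12 and 15. In LPS+Skatole against DMSO, 4 were higher and 0 lower, adding Traf3 (9, 6 and 5 against 13, 17 and 10) and Map3k14 (10, 11 and 12 against 16, 13 and 13). Read against 13.1%, 9.27% and 26% of all genes, these are 1, 2 and 4 of 13. The median difference over the 13 was 1.00, 0.667 and 1.33 peaks, and over 19505 genes with a peak in any library 0.667, 0.333 and 1.00. Within 3 kb, 0, 1 and 2 of the 13 were higher without overlap in these comparisons, where 10.6%, 8.01% and 21.4% of all genes were.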

How the data were processed

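The submitters' processing notes name mm10, fastp 0.20.1, HISAT2 2.1.0 and StringTie 2.0 without a role. The peak caller, duplicates and control are not given in the sources used here. Peaks were called library by library, and for each one the authors deposited a fold (the ratio of summit pileup to local background), a −log10 p and a −log10 q, down to a −log10 p of 5. Total reads are unknown.

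Summit counts and local backgrounds were recovered from the deposited fold and −log10 p, taking the fold as (count + 1)/(background + 1) and p as a Poisson tail. At least 99.99% came out whole (tolerance 0.05). Peaks of the 19 autosomes and both sex chromosomes were merged into regions at 1 bp of overlap, and a region took the height of its peak with the smallest p. Genes and promoters came from RefSeq tables of GRCm38.p6, in which all 3 members and 13 pathway genes matched and which gave no exons or UTRs. Groups were compared by exact permutation tests (Python 3.11.15, scipy 1.17.1). Named were the 3 members, genes overlapping the window, regions called in at least 2 libraries of a group and pathway genes without overlap between groups. Genes, lists and tests were chosen with earlier results of these data known. Alternatives were list length, a −log10 p of 10, windows of 3 and 20 kb, scaling to the lowest background, rank by fold, other height denominators, summits within 250 bp, the replicate number as a block and leaving out each library. Those for single-gene percentiles, the percentile inside Tnf and peak width were chosen after seeing the data. One marker gene of another cell type is not reported here.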

Additional observations from a re-analysis of the deposited data

How the results depend on the processing

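Of 608 alternative values, 538 were labelled as unchanged. For a difference between a pair of groups this label could rest on direction alone. The exact permutation test for a pair has a smallest p of 0.1, which lies above the threshold used for p. Counts of regions and of pathway genes had no p. The number labelled as unchanged is therefore no measure of robustness. LPS minus DMSO in covered length kept its sign and stayed without overlap with the window at 3 and 20 kb, lists of equal length, a −log10 p of at least 10 and scaled counts. The cause of the changes below was not tested. In lists of equal length the peak number gave -1.33 for LPS minus DMSO, with a range of group means of 1.67 (exact joint test, p = 0.164), and the best percentile gave -2.27 for LPS+Skatole minus LPS (the same near Tnf and Lta) and -2.21 for LPS+Skatole minus DMSO. Scaled to the lowest background the peak number gave -0.33 for LPS minus DMSO and a range of 2.33 (exact joint test, p = 0.157), and within 3 kb also 2.33 (exact joint test, p = 0.0571). Ranked by fold, the best percentile gave -4.56 for LPS minus DMSO and -1.17 for LPS+Skatole minus DMSO. 

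With the local background as denominator, the height over the Tnf start gave a range of group means of 0.79 (exact joint test, p = 0.0821) and -0.0085 for LPS+Skatole minus LPS. Relative to the median region, LPS+Skatole minus LPS turned to -0.053 over Ltb, -0.18 over the Tnf start and -0.024 upstream of Lta, LPS minus DMSO upstream of Lta turned to 0.16, and the range inside Tnf was 0.44 (exact joint test, p = 0.0286). With at least 2 libraries against 0, 1 region of the window was gained in LPS against DMSO. Within 3 kb, 0, 1 and 2 pathway genes were higher in LPS than DMSO, LPS+Skatole than LPS and LPS+Skatole than DMSO.

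Leaving out each library in turn, the range of group means in peak number lay between 2.17 and 2.67, with joint p above 0.05 without DMSO 1, DMSO 3, LPS+Skatole 1 or LPS+Skatole 2. The best percentile of LPS+Skatole minus LPS lay between -1.11 and 2.55 (also near Tnf and Lta) and the range of its group means between 2.78 and 5.45. Inside Tnf, the percentile of LPS+Skatole minus LPS lay between -7.31 and 1.21. Over Lst1, LPS+Skatole minus LPS in height lay between -0.16 and 0.17 and the range between 0.17 and 0.52, and in the outermost region LPS+Skatole minus LPS lay between -0.19 and 0.079. Over Ltb the range lay between 0.47 and 0.73, and without LPS+Skatole 2 the exact joint test gave p = 0.0393. Over the Tnf start it lay between 0.29 and 0.50, with joint p of 0.0536 to 0.0643 without DMSO 2, LPS 1, LPS 3 or any LPS+Skatole library. Upstream of Lta, LPS minus DMSO lay between -0.13 and 0.059. Ranges in summit position lay between 38.7 and 85.5 bp upstream of Lta and between 192 and 413 bp in the outermost region.

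Libraries with the same number correlated at -0.012 to 0.011, and libraries with different numbers at -0.015 to 0.018. These values cannot show whether libraries with the same number were handled together, and the labels do not say. With the replicate block the exact joint test gave p = 0.111 for peak number (range 2.33), 0.0556 for covered length (range 4108 bp) and 0.0833 for the height over the Tnf start (range 0.41). For the best percentile near Ltb and for the summit position in the outermost region, the exact joint test with the block gave p = 0.0556 each. The smallest p possible with the block is 0.0278.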
